A study of Mus musculus with 6 samples.

Results

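The genes described here are 9 effectors of Notch signaling: the Hes genes Hes1, Hes3, Hes5, Hes6 and Hes7, the Hey genes Hey1, Hey2 and Heyl, and Nrarp. They were chosen by gene name, and all 9 were found among the 54532 genes of the deposited table. P19 cells are a line from a mouse embryonal carcinoma and turn into neural cells when given retinoic acid. RNA was sequenced from 3 replicates transfected with an siRNA against Baf45d and from 3 transfected with a negative control (NC) siRNA, with the same lipid reagent. All 6 were harvested on day 5 of all-trans retinoic acid, and no library of untreated cells is among them. The series asks what BAF45D, which is encoded by Dpf2 and belongs to the chromatin-remodelling BAF complex, does in early neural differentiation.

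Notch receptors are cleaved when a neighbouring cell presents a ligand of the Delta or Jagged kind, and the freed intracellular domain joins the DNA-binding protein RBPJ to switch on target genes. Most of the Hes and Hey genes are such targets. They encode basic helix-loop-helix (bHLH) repressors that recruit Groucho-type corepressors and keep neural progenitors from turning into neurons by holding down proneural genes such as Neurog2. Hes6 is the exception within the Hes genes, since it opposes Hes1 and favours neuronal differentiation. Nrarp encodes a small ankyrin-repeat protein that is induced by Notch and dampens it. The deposited table lists the 8 Hes and Hey genes as bHLH factors.

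RefSeq promoter windows (GRCm38.p6), from 250 bases before to 50 after a start site, were at hand for Hes5, Hes6, Hes7, Hey2 and Nrarp, or 5 of the 9 genes. The core letters bound by RBPJ, TGGGAA, were searched on both strands, along with the longer GTGGGAA, which contains them. The core was found in 25.6% and the longer form in 6.39% of 32817 such windows of all genes. Both occurred 2 times in the windows of Hes5 and Hey2 and once in that of Hes7, and neither was found in the Nrarp window or in the 2 windows of Hes6. The 3 windows that hold the core are shown because they carry the letters through which Notch is known to act on such genes. Capitals mark TGGGAA, or TTCCCA where it lies on the other strand.
Hes5 (chr4:154960673-154960972, plus strand): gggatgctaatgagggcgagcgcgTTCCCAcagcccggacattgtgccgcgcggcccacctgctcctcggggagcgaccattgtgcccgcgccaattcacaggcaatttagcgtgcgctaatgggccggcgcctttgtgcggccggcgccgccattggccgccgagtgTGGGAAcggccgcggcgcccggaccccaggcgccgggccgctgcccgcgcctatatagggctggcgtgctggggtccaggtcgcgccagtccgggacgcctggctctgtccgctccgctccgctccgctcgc
Hey2 (chr10:30842734-30843033, minus strand): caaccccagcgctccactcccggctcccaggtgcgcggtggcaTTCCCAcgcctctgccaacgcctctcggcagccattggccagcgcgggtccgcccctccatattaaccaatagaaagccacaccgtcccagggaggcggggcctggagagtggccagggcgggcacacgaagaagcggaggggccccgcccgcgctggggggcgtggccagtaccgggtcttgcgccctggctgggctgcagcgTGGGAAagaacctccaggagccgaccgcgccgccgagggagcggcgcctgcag
Hes7 (chr11:69120203-69120502, plus strand): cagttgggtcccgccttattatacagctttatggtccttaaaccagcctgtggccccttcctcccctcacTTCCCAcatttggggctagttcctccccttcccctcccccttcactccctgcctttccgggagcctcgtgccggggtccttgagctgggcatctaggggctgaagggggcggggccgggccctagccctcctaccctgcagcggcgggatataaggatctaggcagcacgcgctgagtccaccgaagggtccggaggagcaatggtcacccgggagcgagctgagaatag
The core began 226 and 82 bases before the start site in the Hes5 window, 207 and 3 bases before it in the Hey2 window, and 180 bases before it in the Hes7 window. The N-box CACNAG, a site that Hes repressors are known to bind, was found in 42.5% of all windows. It occurred 2 times in the Nrarp window, 2 times in the second Hes6 window and 1 time in the Hes7 window. It was found in neither the Hes5 nor the Hey2 window. A match describes the letters and is not evidence of binding.

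Counts totalled from 17127876 to 18499169 in the Baf45d libraries and from 17767104 to 21224822 in the NC libraries. Dpf2 is the target of the siRNA, and CPM are counts scaled to library size. Dpf2 stood at 145.6 ± 3.68 CPM in the Baf45d group and 155.9 ± 1.75 CPM in the NC group (SD, n = 3 each). The groups did not overlap, but the log2 fold change was only -0.098 (SE 0.069, edgeR adjusted p = 0.996). Its interval ran from 0.839-fold to 1.04-fold. The Dpf2 transcript thus shows no clear knockdown and gives little check of the labels. Whether BAF45D protein fell was not tested, so the comparisons below are between siRNAs and cannot be read as effects of BAF45D loss. Baf45d replicate 3 stood apart in Gapdh, which reached 236.2 CPM there and stayed between 14.02 and 31.17 CPM elsewhere. The treatment text also names an siRNA against that gene, without tying it to a library. Neural markers were present in both groups, with Sox1 at 15.2 ± 1.18 FPKM with Baf45d siRNA and 15.7 ± 1.89 FPKM with NC siRNA. Markers of other cell types were mixed. Over the 6 libraries the mesoderm genes T and Msgn1 had 3 and 0 counts but Meox1 and Foxc2 had 5012 and 1108, and the endothelial gene Cdh5 had 39 counts but Kdr had 3545.

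Hes6, Hes1 and Hey1 carried most of the transcript of the 9 genes. Levels between genes are compared in FPKM, fragments scaled to gene length and library depth, as the authors deposited them. Together they made up from 87.5% to 89.2% of the summed FPKM of the 9 genes in each library, and that sum lay between 49.4 and 56.0 FPKM. Over the 6 libraries the mean level was 20.3 FPKM for Hes6, 16.8 for Hes1, 8.73 for Hey1, 3.30 for Nrarp and 1.05 for Hey2. It was 0.578 FPKM for Hes7, 0.538 for Hes5, 0.477 for Hes3 and 0.141 for Heyl. The 4 most abundant genes kept this order in 6 of 6 libraries without overlapping ranges, and Nrarp lay above Hey2 in each. The ranges of Hes6 and Hes1 nearly touched, with a lowest Hes6 value of 18.29 and a highest Hes1 value of 18.25 FPKM. Hey2 and Hes7 overlapped in range, with Hey2 higher in 5 of 6 libraries. Hes7, Hes5 and Hes3 did not differ beyond their spread. Heyl lay below Hes3 in 6 of 6 libraries. Among the 16078 genes that passed the filter on low counts, mean FPKM put Hes6 at percentile 81.5, Hes1 at 77.3 and Hes5 at 11.9.

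**Figure D1:**
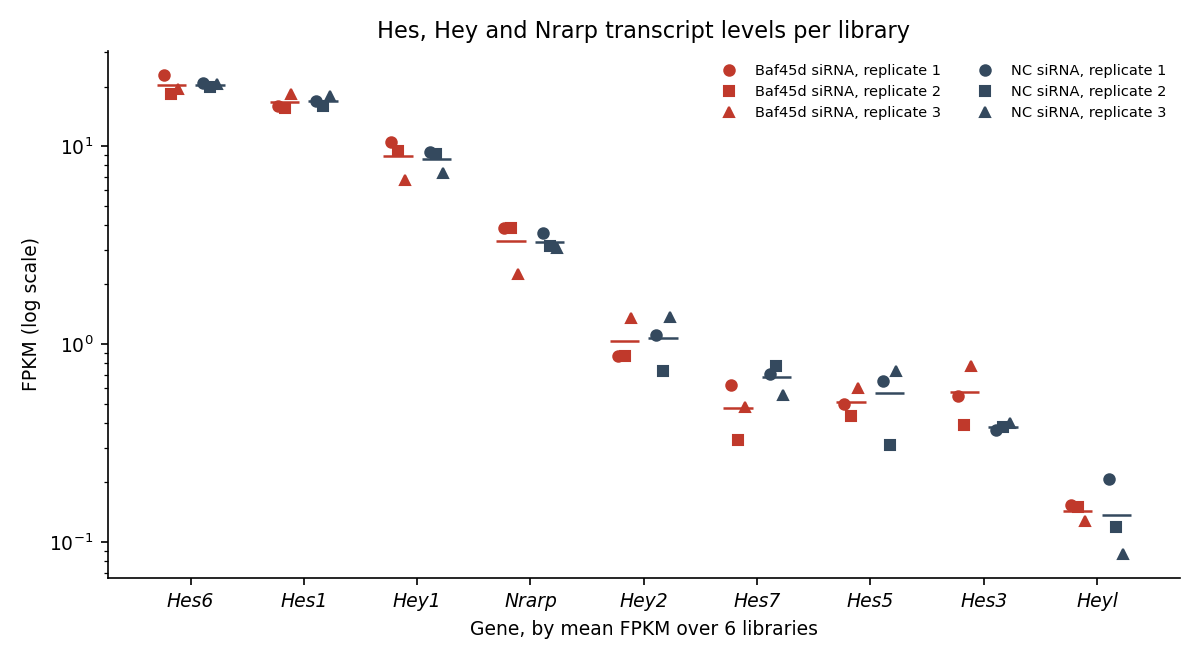
FPKM of the 9 genes in each library on a log axis, ordered by mean, with Baf45d siRNA (red) left of NC siRNA (dark), marker shapes for replicate numbers and a bar at each group mean. Hes6, Hes1 and Hey1 lie above the rest, Heyl lies lowest, and the groups overlap for every gene.

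No effector passed the test of Baf45d against NC siRNA. In edgeR's quasi-likelihood test at a threshold of 0.05 on the adjusted p, 0 of 9 members were called, where 0% of the 16078 genes tested were called. At an unadjusted p under 0.05 there were also 0 of 9, against 2.85% of all genes, and DESeq2 and limma-voom called 0 members as well. With the replicate number as a block the count was 0 of 9 members, against 0.00622% of all genes. Without Baf45d replicate 3, the library apart in Gapdh, the count was again 0 of 9, with a lowest edgeR adjusted p of 0.501, where 44 of 16366 genes, or 0.269%, were called. The groups did not overlap for 0 of 9 members, against 8.04% of all genes (3.74% higher and 4.30% lower with Baf45d siRNA). The median log2 fold change over the 9 was -0.01, and over all genes tested it was 0.01. Fewer cells of a type and less RNA per cell cannot be told apart in such bulk samples. The intervals below state how large a difference between the siRNAs each gene's data still allow. An effect of BAF45D loss was not tested, since Dpf2 showed no clear knockdown.

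Hes1, the general Notch-induced repressor of proneural genes (chromosome 16, 30064384 to 30067796, plus strand, GRCm38, up to 4 exons), was steady. It stood at 16.0, 15.6 and 18.2 FPKM in the Baf45d libraries, from 579, 539 and 684 counts, and at 16.9, 15.9 and 17.8 FPKM in the NC libraries, from 619, 694 and 652 counts. The highest and the lowest library were both from the Baf45d group, which enclosed the NC group. The log2 fold change came to -0.02 (SE 0.10, edgeR adjusted p = 0.997), and its 95% interval ran from 0.844-fold to 1.15-fold.

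Hes6, the Hes1 antagonist (chromosome 1, 91411483 to 91414038, minus strand), was the most abundant of the 9. It stood at 22.9, 18.3 and 19.5 FPKM in the Baf45d libraries and at 20.7, 19.9 and 20.6 FPKM in the NC libraries. The Baf45d libraries spread more widely and enclosed the NC libraries. The log2 fold change came to -0.01 (SE 0.11, edgeR adjusted p = 0.997), with an interval from 0.843-fold to 1.17-fold.

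Because Hes6 counteracts Hes1, their ratio was also compared. The FPKM of Hes6 was 1.43, 1.17 and 1.07 times that of Hes1 in the Baf45d libraries and 1.225, 1.253 and 1.156 times in the NC libraries. In FPKM, Hes6 exceeded Hes1 in 6 of 6 libraries, and the groups overlapped. That order rests on the scaling to gene length in Baf45d replicate 3, where Hes6 had 650 counts and Hes1 had 684. The log2 ratio averaged 0.28 ± 0.22 with Baf45d siRNA and 0.28 ± 0.06 with NC siRNA (SD, n = 3 each). The difference of 0.0054 had p = 1 by exact permutation (two-sided), where 3 against 3 libraries can give no p under 0.1.

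Hes5, Hes3 and Hes7 were near the limit of detection. Hes5, a main Notch target in neural progenitors of the mouse embryo (chromosome 4, 154960923 to 154962371, plus strand), had 12, 10 and 15 counts in the Baf45d libraries and 16, 9 and 18 counts in the NC libraries. Its level was 0.509 ± 0.0831 FPKM with Baf45d siRNA and 0.566 ± 0.227 FPKM with NC siRNA (SD, n = 3 each), and the NC libraries enclosed the others. The log2 fold change came to -0.13 (SE 0.41, edgeR adjusted p = 0.997), and the interval from 0.485-fold to 1.73-fold leaves room for sizeable differences either way.

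Hes3, expressed early in the neural tube and at the midbrain-hindbrain boundary, had 19, 13 and 28 counts in the Baf45d libraries and 13, 16 and 14 counts in the NC libraries. It lies on chromosome 4, as do Hes5 and Heyl (Hes3 from 152285972 to 152291662, minus strand). Its log2 fold change of 0.58 (SE 0.35, edgeR adjusted p = 0.996) was the highest of the 9, and was 0.30 without Baf45d replicate 3. On the CPM scale, Baf45d replicate 2 lay at 0.772, inside the NC range of 0.728 to 0.783. Hes7, the oscillating repressor of the somite clock (chromosome 11, 69120404 to 69124055, plus strand), had 20, 10 and 16 counts with Baf45d siRNA and 23, 30 and 18 counts with NC siRNA. Its log2 fold change of -0.51 (SE 0.34, edgeR adjusted p = 0.996) was the lowest of the 9, and was -0.30 without Baf45d replicate 2. Baf45d replicate 1, at 1.14 CPM, lay above NC replicate 3, at 1.01 CPM. For Hes1, Hes3, Hes5, Hes7 and Heyl the 95% counting intervals of the lowest and the highest library overlapped, so the spread among libraries was not detectable beyond counting error by that comparison. For Hes6, Hey1, Hey2 and Nrarp they did not overlap. These intervals are exact Poisson intervals and cover counting error only.

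The marker genes of somites, where Hes7 is best known, were low but not uniformly so. Of the 10 paraxial mesoderm markers, 4 passed the filter, Msgn1 had 0 counts, and T, Mesp1 and Mesp2 had 3, 2 and 1 counts over the 6 libraries. Summed over the list, the markers stood at 46.9 to 51.5 CPM in the Baf45d libraries and 55.5 to 72.8 CPM in the NC libraries, most of it from Meox1. The 4 tested markers had negative log2 fold changes, with a median of -0.43, where 7726 of the 16078 genes tested were negative. None was called (edgeR adjusted p = 0.996 for each), and Tbx6 and Tcf15 had only 118 and 139 counts over the 6 libraries. The part of these markers in the Hes7 values was not tested.

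Hey1 (chromosome 3, 8663359 to 8667256, minus strand), a Notch-induced repressor of neural and vascular cells, stood at 10.4, 9.41 and 6.76 FPKM in the Baf45d libraries and at 9.37, 9.07 and 7.32 FPKM in the NC libraries. Replicate 3 was the lowest in both groups. The log2 fold change came to 0.05 (SE 0.16, edgeR adjusted p = 0.997), with an interval from 0.801-fold to 1.33-fold. Hey2 (chromosome 10, 30832359 to 30842801, minus strand), known best as an arterial and heart gene, had replicate 3 at the opposite end. It stood at 0.871, 0.874 and 1.35 FPKM in the Baf45d libraries and at 1.12, 0.732 and 1.37 FPKM in the NC libraries, with replicate 3 highest in both groups. The log2 fold change of Hey2 stood at -0.05 (SE 0.27, edgeR adjusted p = 0.997), with an interval from 0.635-fold to 1.47-fold.

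Of 8 endothelial markers, 3 passed the filter and none were at 0 in all libraries. Their sum stood at 32.4 to 38.9 CPM in the Baf45d libraries and 37.0 to 44.1 CPM in the NC libraries. Most of the sum came from Kdr, which encodes a VEGF receptor and stood at 3.195 ± 0.378 FPKM with Baf45d siRNA and 3.88 ± 0.355 FPKM with NC siRNA (SD, n = 3 each). Tek, an angiopoietin receptor gene, stood at 0.804 ± 0.172 FPKM with Baf45d siRNA and 0.452 ± 0.0668 FPKM with NC siRNA, with groups that did not overlap (log2 fold change 0.83, edgeR adjusted p = 0.996). Cdh5 and Pecam1, which define endothelium, stood at 0.0667 ± 0.0213 and 0.288 ± 0.0304 FPKM with Baf45d siRNA and at 0.102 ± 0.0976 and 0.273 ± 0.0172 FPKM with NC siRNA (SD, n = 3 each). The part of endothelial content in the Hey1 and Hey2 values was not tested.

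Heyl (chromosome 4, 123233556 to 123249875, plus strand), a Hey gene of smooth muscle and somites, had 14, 13 and 12 counts in the Baf45d libraries and 19, 13 and 8 counts in the NC libraries. The NC libraries enclosed the others, and Heyl had a log2 fold change of 0.07 (SE 0.40, edgeR adjusted p = 0.997). The 8 mesenchyme and smooth muscle markers summed to 646.5 to 737.6 CPM in the Baf45d libraries and 762.4 to 994.6 CPM in the NC libraries. Most of that sum came from Col1a2, Col1a1 and Acta2. The smooth muscle genes Tagln, Cnn1 and Myh11 averaged 0.520, 4.18 and 0.821 CPM, with log2 fold changes of 0.25, -0.10 and -0.02, and that of Acta2 was -0.43. None of the 8 was called in edgeR, and their part in the Heyl values was not tested.

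Nrarp (chromosome 2, 25180758 to 25183339, plus strand, 1 exon), the feedback inhibitor, stood at 3.86, 3.87 and 2.25 FPKM with Baf45d siRNA and at 3.65, 3.11 and 3.06 FPKM with NC siRNA. Baf45d replicate 3 was the lowest of all 6 and the other Baf45d libraries were the highest. Between groups the log2 fold change of Nrarp stood at 0.02 (SE 0.22, edgeR adjusted p = 0.997), with an interval from 0.727-fold to 1.42-fold.

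**Figure D2:**
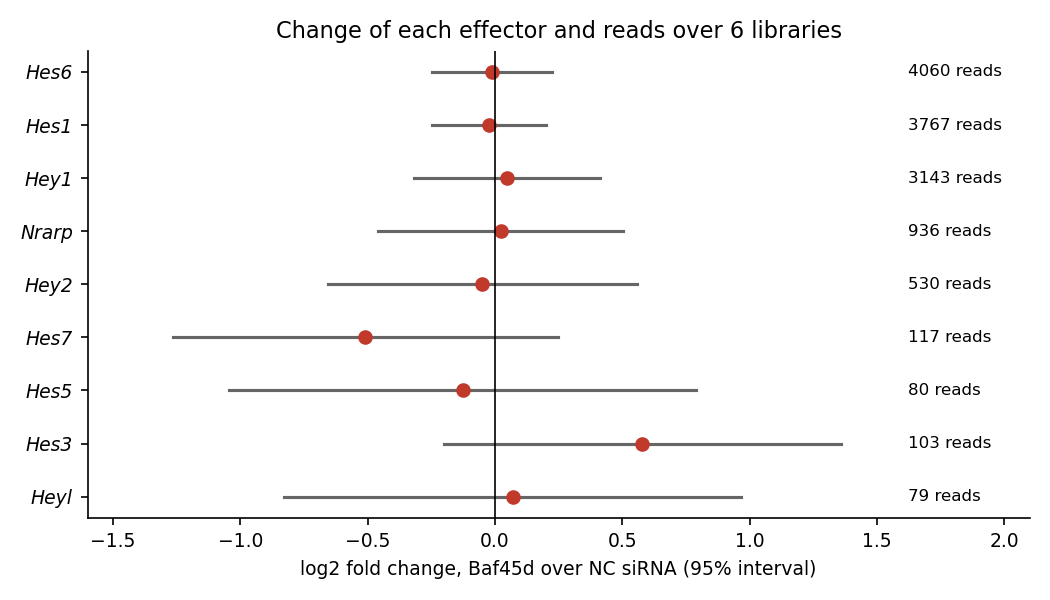
Log2 fold change of each gene, Baf45d over NC siRNA, with its 95% interval, and the reads counted over 6 libraries at the right. Every interval includes 0, and the intervals of Hes7, Hes5, Hes3 and Heyl, with 79 to 117 reads, are the widest.

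Some counts carry an added uncertainty, since the use of strand in counting is not given in the sources used here. Hes5 overlaps Gm20421 (12 counts over the 6 libraries), Hes7 overlaps 9130213A22Rik (63 counts) and Nrarp overlaps Gm38287 (0 counts), each on the opposite strand. Hes7 also shares a stretch of 101 bases at 95.05% identity with Gm47732. The other 6 genes overlap no annotated gene, and no stretch of 100 bases or more at 95% identity was found between their transcripts and those of other genes.

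Hey1 passed a test across replicate numbers, though not between the siRNAs. This comparison was chosen after the values were seen. The labels give the numbers 1 to 3 in both groups without saying what a number shares. Hey1 and Nrarp were lower in both libraries numbered 3 than in the other 4, and Hes1 and Hey2 were higher in both. Of all genes tested, 15.4% were lower in both libraries numbered 3 and 17.1% were higher in both, so 2 of 9 members each way is near that share.

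Hey1 stood at 34.3, 30.9 and 22.1 CPM in Baf45d replicates 1 to 3 and at 30.7, 29.8 and 24.0 CPM in NC replicates 1 to 3. In the edgeR fit with both siRNA and replicate number, its log2 difference of replicate 3 over replicate 1 was -0.50, and the test across replicate numbers gave an adjusted p of 0.0396. It was the 1 member called, where 4.66% of all genes were called. Leaving out Baf45d replicate 1, 2 or 3 ended that call, with edgeR adjusted p of 0.174, 0.0885 and 0.453, and so did leaving out NC replicate 1 (0.0746). The difference stayed negative in all 6 omissions of 1 library, from -0.61 to -0.38.

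Hey2 stood at 4.03, 4.04 and 6.21 CPM in Baf45d replicates 1 to 3 and at 5.15, 3.38 and 6.32 CPM in NC replicates 1 to 3. Its log2 difference of replicate 3 over replicate 1 was 0.45 (edgeR adjusted p = 0.155). Nrarp had a difference of -0.50 (edgeR adjusted p = 0.286) and Hes1 of 0.13 (edgeR adjusted p = 0.497), so neither passed.

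**Figure D3:**
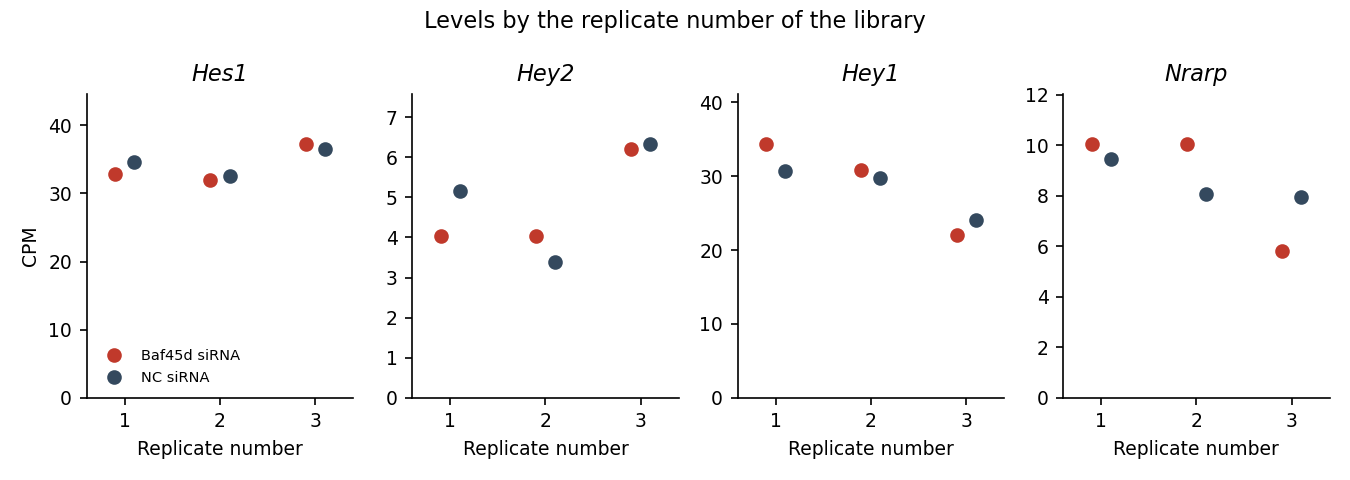
CPM of Hes1, Hey2, Hey1 and Nrarp by replicate number, with Baf45d siRNA (red) left of NC siRNA (dark) and axes that start at 0. Both libraries numbered 3 lie above the other 4 for Hes1 and Hey2 and below them for Hey1 and Nrarp.

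Some other genes around Notch differed across replicate numbers too. Of 78 pathway genes tested outside the 9, 9 were called across replicate numbers in edgeR, or 11.5%, against 4.66% of all genes. Over all genes such calls numbered 749, but from 115 to 1354 when 1 library was left out. Whether the pathway calls hold under these omissions was not tested. The receptor gene Notch1, the ligand gene Dll3, the fringe gene Mfng and the factor gene Gata2 were among those lower in replicate 3 than in replicate 1. Bhlhe40, a bHLH repressor related to the Hes factors, and Myc, Mycn and Ccnd1, which drive the cell cycle, were higher. Mfng stood at 47.2, 36.5 and 21.9 CPM in Baf45d replicates 1 to 3 and at 33.4, 29.9 and 25.4 CPM in NC replicates 1 to 3 (edgeR adjusted p = 0.0283). Beside this, the summed level of 9 neuron markers was 1134, 1033 and 717.1 CPM in Baf45d replicates 1 to 3 and 864.4, 787.6 and 793.6 CPM in NC replicates 1 to 3. The part of neuron content in the Hey1 values was not tested.

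By pattern over the 6 libraries, the genes most like Hes1 were Nat10 (Pearson r = 0.997) and Pgrmc2 (r = 0.994). Those most like Hes6 were Efna4 (r = 0.993) and Mms19 (r = 0.992), and those most like Hey1 were Atp8a1 (r = 0.996) and Cacnb3 (r = 0.995). Hey2 was followed most closely by Msh6 (r = 0.999) and Dgcr8 (r = 0.978), and Nrarp by Svip (r = 0.992) and Zfp663 (r = 0.990). For the genes with few counts they were Slc8b1 and Ctnnb1 for Hes7, Elovl4 and Rnf185 for Hes3, Mrpl37 and Rbm14 for Hes5, and Sh3bgrl3 and Ift172 for Heyl. The number of genes past r = 0.95, of 11083 or 11084 compared, was 173 for Hey1, 123 for Hes1, 42 for Hes6 and 1 for Hes5. With 6 libraries and so many genes, such values describe a likeness and nothing more.

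Upstream and downstream of the effectors, no pathway gene was called between Baf45d and NC siRNA in edgeR (0 of 78 tested, against 0% of all genes). At an unadjusted p under 0.05 there were 4 of 78, among them Dlk1, Mib1 and Id3, against 2.85% of all genes. The lists were chosen with earlier results of these data known.

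Of 4 receptor genes, 2 had a positive and 2 a negative log2 fold change, with the smallest p for Notch1 (0.24, SE 0.17) and Notch4 (0.27, SE 0.25), both at an edgeR adjusted p of 0.996. Notch1 stood at 8.94 ± 2.41 FPKM with Baf45d siRNA and 7.57 ± 0.729 FPKM with NC siRNA (SD, n = 3 each). Of 8 ligand genes, 6 were positive and 2 negative. Dlk1, which encodes a non-canonical ligand, stood at 6.70, 7.90 and 7.17 FPKM in the Baf45d libraries and at 9.56, 9.89 and 7.70 FPKM in the NC libraries, and the groups overlapped. Dll1, the ligand of neuronal precursors, stood at 7.71, 6.06 and 3.62 FPKM with Baf45d siRNA and at 4.86, 4.46 and 4.04 FPKM with NC siRNA. Its Baf45d libraries enclosed the NC libraries.

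Among 22 genes of receptor processing and trafficking, 8 were positive and 14 negative. Mib1, the ubiquitin ligase that activates Notch ligands, stood at 31.3, 23.8 and 25.3 FPKM in the Baf45d libraries and at 30.6, 32.5 and 31.2 FPKM in the NC libraries. Baf45d replicate 1 lay inside the NC range and the other Baf45d libraries lay below it. Mib1 had a log2 fold change of -0.23 (SE 0.10, edgeR adjusted p = 0.996). None of the 9 effectors was listed under any of the 217 KEGG or 599 Reactome terms of the authors' deposited tables.

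Among 15 genes of the RBPJ complex, 8 were positive and 7 negative. Cir1, an RBPJ corepressor, had a log2 fold change of 0.21 (SE 0.13), and Spen, another, of 0.13 (SE 0.10), both at an edgeR adjusted p of 0.996. Of 9 tested Hes corepressors and relatives, 3 were positive and 6 negative. Bhlhe40 stood at 18.3 ± 5.64 FPKM with Baf45d siRNA and 22.5 ± 4.95 FPKM with NC siRNA (SD, n = 3 each), close to the level of Hes6. By replicate number 1 to 3 it stood at 14.9, 15.1 and 24.8 FPKM with Baf45d siRNA and at 19.2, 20.1 and 28.2 FPKM with NC siRNA. It was thus lower with Baf45d siRNA at each number, with an edgeR adjusted p of 0.996, or 0.285 with the replicate block. Runx2, a binding partner of Hes1, had a log2 fold change of -0.29 (SE 0.26, edgeR adjusted p = 0.996). Hes2, a further Hes gene, had 9 counts over the 6 libraries and Helt, a related bHLH gene, had 0, so neither was tested.

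Of 8 other Notch targets, 2 were positive and 6 negative. Id3, an inhibitor of bHLH factors that also responds to BMP, stood at 125.6, 115.1 and 121.4 FPKM in the Baf45d libraries and at 141.1, 139.2 and 133.2 FPKM in the NC libraries. All 3 Baf45d libraries lay below all 3 NC libraries, with a log2 fold change of -0.19 (SE 0.07, edgeR adjusted p = 0.996). Fabp7, a radial glia gene, stood at 0.812, 1.09 and 1.52 FPKM with Baf45d siRNA and at 0.579, 0.336 and 1.07 FPKM with NC siRNA, a log2 fold change of 0.80 (SE 0.44, edgeR adjusted p = 0.996).

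Of 12 tested genes that Hes factors are known to repress, 7 were positive and 5 negative, with a median log2 fold change of 0.12 against 0.01 over all genes tested. Beside this, 8 of 9 neuron markers were positive, with a median of 0.24, where 8352 of the 16078 genes tested were positive. At an unadjusted edgeR p under 0.05 there were 2 of 9, against 2.85% of all genes, and 0 passed the adjusted threshold. Their summed level was 1134, 1033 and 717.1 CPM in Baf45d replicates 1 to 3, against 787.6 to 864.4 CPM in the NC libraries. The part of neuron content in the values of the genes repressed by Hes factors was not tested. Neurod4, a proneural bHLH gene, stood at 0.944, 1.17 and 0.910 FPKM in the Baf45d libraries and at 0.550, 0.629 and 0.882 FPKM in the NC libraries. The groups did not overlap, and its log2 fold change came to 0.55 (SE 0.25, edgeR adjusted p = 0.996). Neurod1, which acts in committed neuronal precursors, had a log2 fold change of 0.34 (SE 0.17, edgeR adjusted p = 0.996).

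**Figure D4:**
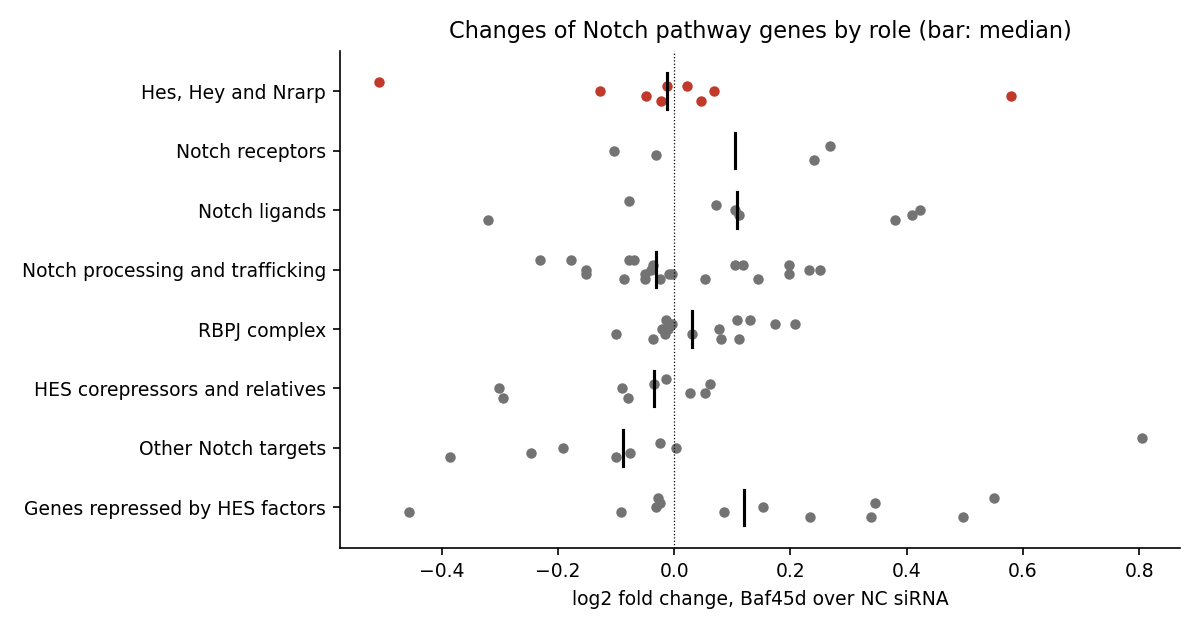
Log2 fold change, Baf45d over NC siRNA, of the 9 effectors (red) and of the tested genes of each pathway list (grey), with a bar at each median. All medians lie between -0.09 and 0.12, and no gene passed the threshold.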

How the data were processed

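The authors deposited 1 table of genes with raw counts per library, per the file headers. Its FPKM values, also by the authors, were tested against the counts and equal count over length over DESeq2 size factor, up to a constant. The authors' group means are a signal of normalized counts, and the same deposited table has their log2 fold changes and their p-values, raw and adjusted. The authors also deposited term tables and protein pairs with a score. The submitters' processing notes name mm9 and DESeq2 1.16.1. Yet 98.3% of 54409 genes had the identical start and end in GENCODE M21, as did the 9 effectors, so coordinates are given as GRCm38. No aligner or counter is named in the sources used here.

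Counts were fitted with edgeR 4.0.16 in R 4.3.3 (default filterByExpr, TMM scaling, robust quasi-likelihood F test on siRNA, two-sided, Benjamini-Hochberg adjustment over 16078 genes, threshold 0.05). The fit was also run on simulated data. Those libraries were independent and had no effect of the replicate number, so that run does not vouch for the test on these data. An SE is the log2 fold change over the square root of F, and a 95% interval uses it with the t distribution. CPM uses TMM-scaled library sizes, and likeness is Pearson's r of log2 CPM (prior count 2) among genes with a mean of 5 CPM or more and a descriptive symbol. All 9 effectors passed the filter. Counts of the same group differed by more than sampling noise (a chi-square of 3.31 to 22.8 for each degree of freedom). The labels call the samples biological replicates. Across genes, same-numbered libraries deviated together from their group means (r = 0.17, 0.13 and 0.35, against -0.24 to 0.12 for different numbers). Baf45d replicate 2 with NC replicate 1 had 0.12. A pairing by number was read from the data, because the labels state none. The main fit, with its SEs, intervals and p-values, did not use that pairing, nor did the Hes6 to Hes1 permutation. It entered only the replicate block and the test across replicate numbers. With the block, 1246 of 16078 genes had an unadjusted edgeR p under 0.05, against 459 in the main fit. Alternatives were DESeq2 1.42.0, limma 3.58.1 (voom and log2 FPKM), other scalings and filters, a replicate block and omission of libraries. Shared sequence was searched with BLAST+ 2.17.0, and figures were drawn with matplotlib 3.10.9. The genes and lists were chosen with earlier results of these data known. Named were all 9 effectors, called genes or else the 2 smallest p of each pathway list, the 2 genes most like each effector, Dpf2, Gapdh and defining markers. Other genes were named after their values were seen. The listed gene Tle5 was not analysed here, and some genes that this rule names are not reported here.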

Additional observations from a re-analysis of the deposited data

How the results depend on the processing

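No effector and no pathway gene was called between Baf45d and NC siRNA under any alternative run. The lowest adjusted p of an effector was 0.50, without Baf45d replicate 3. Over all genes, 0 were called, against 10 with no filter on low counts, 1 with the replicate block, 20 without replicate 3 of both groups, and 0 to 44 when 1 library was left out, with 44 without Baf45d replicate 3. DESeq2 and limma-voom called 0 genes, with 394 and 483 at an unadjusted p under 0.05, against 459 in edgeR. The block changed no other call. Hes3 stayed positive and Hes7 negative, at 0.18 and -0.19 on log2 FPKM plus 1, where low genes are compressed. Nrarp, at 0.02, turned to -0.021 with limma-voom, -0.0042 and -0.014 on log2 FPKM plus 1 and plus 0.1, and -0.00078 with the replicate block. Without replicate 3 of both groups, Hes6 was at 0.028 and Heyl at -0.069. Leaving out 1 library gave a range for Hes1 from -0.092 to 0.025, Hes3 from 0.30 to 0.79, Hes7 from -0.75 to -0.30, Hes5 from -0.44 to 0.11, Hes6 from -0.11 to 0.060, Hey1 from -0.090 to 0.21, Hey2 from -0.29 to 0.17, Heyl from -0.16 to 0.47, Nrarp from -0.10 to 0.24 and the log2 Hes6 to Hes1 ratio from -0.11 to 0.10. The causes were not tested. Across replicate numbers, a test added after the data were seen, 749 genes were called, against 1706 with no filter and 115 to 1354 with 1 library left out, and members called ranged from 0 to 1. A mean of 1 CPM or more kept 6 of the 9 effectors. Depth limits Hes3, Hes5, Hes7 and Heyl, with 79 to 117 counts over the 6 libraries, and 3 libraries a group limit the rest.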
